A study of Mus musculus with 12 samples.

Results

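The amino acid transporter families measured in mouse uterine co-cultures were the solute carrier families Slc1, Slc3, Slc6, Slc7, Slc36, Slc38 and Slc43. Members were chosen by symbol alone, as genes with a probe set of a single symbol from 1 of these families, and each gene was read from its brightest probe set over the 12 arrays. The symbols matched 64 of 19938 genes, of which 62 are transporters. The other two, Slc7a6os and Slc6a19os, are opposite strand genes that share the symbols and are described apart.

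The cells came from CD-1 mice on day 4 of pseudopregnancy. Uterine epithelial sheets and stromal cells were separated by enzymatic digestion and grown together, the epithelium on matrigel-coated inserts and the stroma on cover slips. After overnight depletion in medium without phenol red and with 1% charcoal-stripped serum, the co-cultures received estradiol (E2, 10 nM) or its vehicle (0.01% ethanol) for 2 days, and each layer was then profiled on its own on Affymetrix Mouse Gene 1.0 ST arrays. Each of the 4 combinations of layer and treatment had 3 arrays. All groups were in co-culture, so no layer was profiled without the other, and the labels name no genetic change. The labels do not say whether the 3 replicates of a group were separate cultures or animals, and the p-values reflect no more than the spread among these arrays.

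Amino acids cross membranes through carriers with overlapping substrates. Exchangers such as Slc1a4, Slc1a5 and the Slc7 light chains swap amino acids across the membrane, whereas many Slc38 and Slc6 proteins use the sodium gradient to load the cell. These light chains reach the membrane only when paired with a heavy chain of family Slc3. The supply sets protein synthesis, glutathione synthesis and mTORC1 activity, and in the uterus it also feeds the luminal fluid that the early embryo meets.

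Of the 62 transporters, 31 had low signal, meaning that all 4 group means were under the median of named probe sets in that group (7.39 to 7.41 on the log2 scale). Values between arrays are differences of log2 signal, and the signals of different probe sets are not comparable with each other. A gene was called where limma's adjusted p, over the 23410 probe sets with a symbol, was under 0.05. At that threshold 24 transporters (38.7%) were called in at least 1 of 5 comparisons, against 25.5% of all probe sets tested. An E2 comparison called 7 of them (11.3%, against 5.10%) and a comparison of the layers 21 (33.9%, against 24.5%). No transporter was called in both E2 comparisons, as 0.572% of all probe sets were. Of the low-signal members, 5 were called, all between layers: Slc1a3, Slc36a2, Slc6a14, Slc7a15 and Slc38a3.

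The layers differed in purity, which bears on every comparison that follows. Over 14 epithelial markers the mean log2 signal was 9.35 to 10.80 in the epithelial vehicle arrays, 9.29 to 9.60 in the epithelial E2 arrays and 6.57 to 7.02 in the stromal arrays, where 11 (vehicle) and 10 (E2) of the 14 were below the median. Over 15 stromal fibroblast markers it was 9.59 to 10.51, 10.34 to 10.51 and 10.70 to 11.02, so the epithelial inserts also held transcripts of these markers. Which cells of the inserts carried these transcripts was not tested. Over 5 mesothelial markers the epithelial arrays gave 9.55 to 10.26, and the stromal ones 7.19 to 7.48. In RNA from a whole layer, fewer cells of a type and less RNA per cell cannot be told apart. Over the probe sets with a symbol, epithelial vehicle replicate 2 and epithelial E2 replicate 3 stood apart from their groups. By markers, epithelial vehicle replicate 3 had the lowest epithelial mean of its group (9.35, against 10.32 and 10.80). Its stromal fibroblast mean (10.51, against 9.91 and 9.59) and mesothelial mean (10.26, against 9.57 and 9.69) were the highest of that group.

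The sequences shown here are those of the transporters that fell after E2 and whose promoter holds the amino acid response element TGATGNAA, the core to which ATF4 and its partners bind in genes of the amino acid starvation response. The RefSeq promoter table (GRCm38.p6, 250 bases before to 50 after a start) had an entry for 45 member genes. The core was read on both strands, and capitals mark the match. All 3 genes lie on the minus strand, and the sequences run 5′ to 3′ along the gene.
Slc7a11, chr3:50443613-50443719: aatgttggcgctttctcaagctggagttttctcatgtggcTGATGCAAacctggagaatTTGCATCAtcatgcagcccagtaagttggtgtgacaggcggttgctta
Slc1a4, chr11:20332704-20332757: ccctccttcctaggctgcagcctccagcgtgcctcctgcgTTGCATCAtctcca
Slc7a7, chr14:54418038-54418125: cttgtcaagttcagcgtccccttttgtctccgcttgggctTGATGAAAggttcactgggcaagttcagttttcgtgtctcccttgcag
Slc7a7, chr14:54417935-54417985: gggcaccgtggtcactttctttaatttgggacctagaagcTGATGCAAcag
The Slc7a11 promoter held 2 matches in opposite orientations, at -66 and -47 from the annotated start. The Slc1a4 match began at -4, and those of Slc7a7 at -141 and -1 of its upstream start. The core occurred in 3.97% of all 32851 promoters and 4.51% of 27025 genes. Among the members it occurred in 4 of 45 genes (Slc1a4, Slc6a21, Slc7a7 and Slc7a11). Of the 5 genes called in an E2 comparison that had an entry, 3 held it. The same windows were read for 3 other motifs. The Nrf2 core TGACNNNGC was in 9 of 45 members, 12.4% of all promoters and 14% of all genes, with 0 of the 5 called genes. The E-box CACGTG was in 9 of 45, 7.15% and 8.09%, with Slc38a7 as the called gene that held it. The palindromic estrogen response element was in 0 of 45, 0.07% and 0.074%. These are matches of letters, and binding was not measured.

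The first comparison asked how the epithelial layer responded to E2. The neutral amino acid exchanger Slc1a4, the lysosomal glutamine transporter Slc38a7 and Slc7a7, the light chain that exports arginine and lysine, fell. These 3 of 62 transporters were called, all lower and 0 higher, which is 4.84% of the members against 2.47% of all probe sets tested (1.57% higher and 0.906% lower). The median change was -0.01 over the 62 transporters, -0.18 over the 31 above the low-signal limit and 0.03 over all probe sets, and single members ranged from -1.51 to 0.62.

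Slc7a7 gave 10.29, 11.34 and 9.91 in the epithelial vehicle arrays and 8.94, 9.07 and 8.98 in the E2 arrays. Every vehicle array was above every E2 array, and the spread lay almost wholly in the vehicle group. It fell by 1.51 (log2, SE 0.30, 2.86-fold), with adjusted p = 0.0255. In the stroma the values were 9.71, 9.38 and 9.92 under vehicle and 9.06, 9.12 and 8.78 under E2. These groups did not overlap either, but the difference of -0.68 ± 0.30 (SE) did not pass the test (adjusted p = 0.373).

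Slc1a4, known as ASCT1, carries alanine, serine, cysteine and threonine. Its epithelial signals were 9.48, 10.15 and 9.36 under vehicle and 8.69, 8.70 and 8.45 under E2. The groups were separate, with vehicle replicate 2 the highest array. The gene fell by 1.05 (SE 0.20, 2.08-fold, adjusted p = 0.0218). The stromal arrays gave 8.72, 8.45 and 8.67, then 8.38, 8.23 and 7.91, also without overlap. The stromal difference of -0.44 ± 0.20 was not called (adjusted p = 0.398).

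Slc38a7 gave 9.69, 10.09 and 9.59 under vehicle and 9.06, 9.15 and 8.84 under E2 in the epithelium, again without overlap. It fell by 0.77 (SE 0.14, 1.71-fold, adjusted p = 0.0184). In the stroma it was 9.75, 9.72 and 9.89 against 9.75, 9.71 and 9.50, where the groups overlapped and the difference was -0.13 ± 0.14 (adjusted p = 0.883).

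Epithelial markers moved beside these genes. In the same comparison 13 of the 14 epithelial markers had a lower mean after E2, with a median of -0.68 and 1 called (Cldn4, lower), while the medians of the stromal and leukocyte lists were 0.38 and 0.61. The part of layer makeup in these 3 differences was not tested. Among the epithelial E2 arrays, replicate 3 had the highest epithelial marker mean (9.60, against 9.29 and 9.49). It was the lowest for Slc1a4 and Slc38a7 and lay between the others for Slc7a7. Among the epithelial vehicle arrays, replicate 3 had the lowest epithelial marker mean and was the lowest for all 3 genes. Its marker mean of 9.35 lay within the range of the E2 arrays, while its signal was above every E2 array for all 3 genes. Epithelial vehicle replicate 2, with the highest such mean, was the highest array for all 3 genes. Without it the differences were -1.10 for Slc7a7, -0.81 for Slc1a4 and -0.62 for Slc38a7 (adjusted p = 0.0118, 0.0213 and 0.0244), and without both arrays that stood apart they were -1.09, -0.73 and -0.53. All 3 calls depended on how the spread was estimated. In a fit of the 6 epithelial arrays alone adjusted p was 0.246, 0.207 and 0.227 for Slc7a7, Slc1a4 and Slc38a7, and 0 transporters were called. Without epithelial E2 replicate 1 it was 0.103, 0.0807 and 0.0695, and without E2 replicate 2 it was 0.0978, 0.0791 and 0.0501, again with 0 transporters called. Slc7a7 also missed the threshold without epithelial vehicle replicate 1 (0.0529). The number of calls was 6 without vehicle replicate 3, 5 without E2 replicate 3, and 7 without both arrays that stood apart. Over all 23410 probe sets these fits called 1482, 1287 and 2811. The fits with 0 transporters called had 29 (6 arrays), 193 (without E2 replicate 1) and 173 (without E2 replicate 2).

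Several other carriers were lower in the epithelial E2 arrays without passing the test. The heavy chain Slc3a2 gave 12.26, 12.39 and 12.31 under vehicle and 12.08, 12.06 and 12.04 under E2, separate groups with a difference of -0.26 ± 0.08 (adjusted p = 0.124). The arginine carrier Slc7a1 gave 10.36, 10.93 and 10.46 against 10.11, 10.09 and 10.09, also separate, with -0.49 ± 0.14 (adjusted p = 0.11). Its relative Slc7a3 gave 9.20, 10.57 and 9.99 against 8.96, 8.79 and 9.19, where the groups almost touched and the difference was -0.94 ± 0.36 (adjusted p = 0.225). Slc7a5 gave 11.49, 11.73 and 11.69 against 11.56, 11.55 and 11.30, overlapping groups with a difference of -0.17 ± 0.36.

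**Figure D1:**
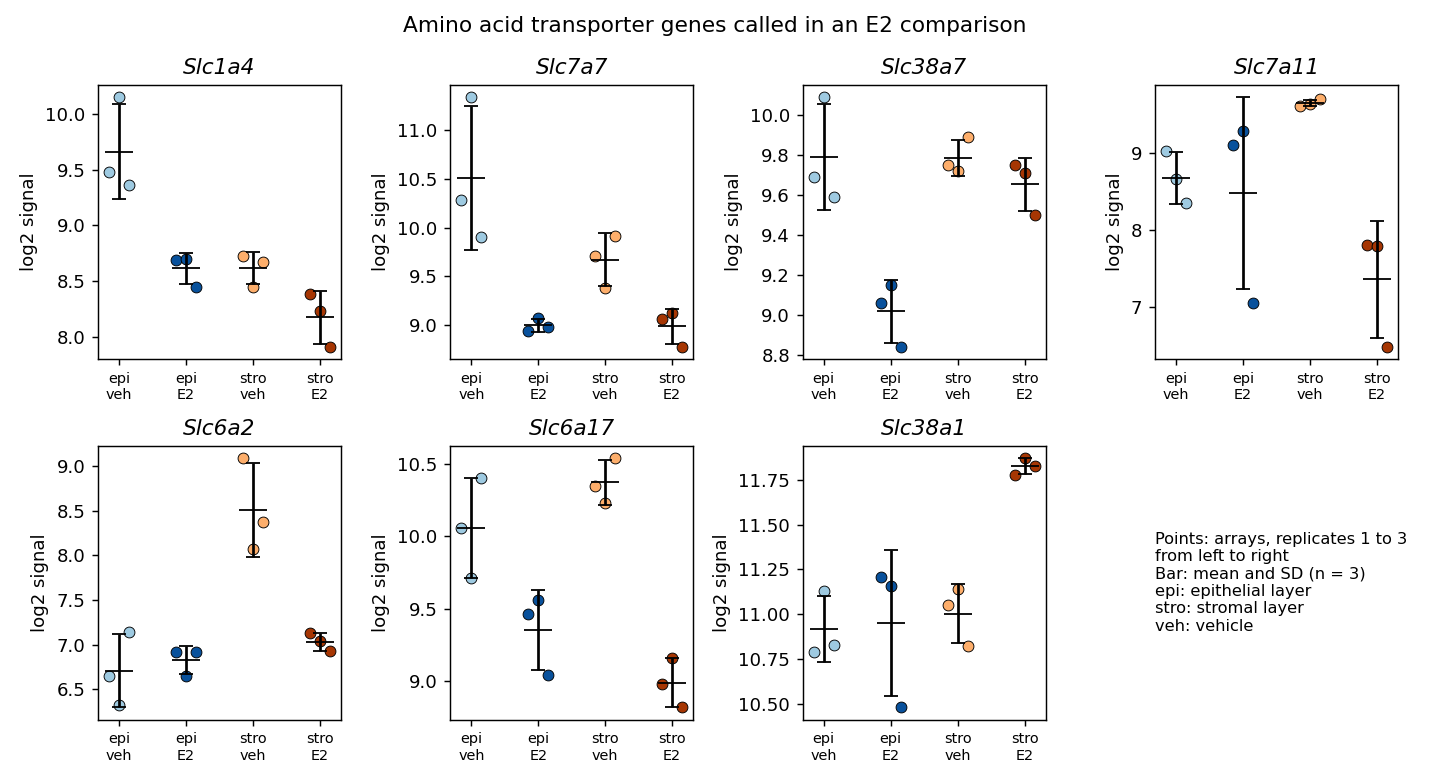
Log2 signal of the 7 transporters called in an E2 comparison, one panel per gene, with 3 arrays per group as points and the mean and SD as bars; each vertical axis has its own range. In the epithelium Slc1a4, Slc7a7 and Slc38a7 separate vehicle from E2, and in the stroma Slc7a11, Slc6a2, Slc6a17 and Slc38a1 do. Slc1a4 and Slc7a7 also separate in the stroma and Slc6a17 in the epithelium, where they were not called.

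The second comparison was the same contrast in the stromal layer. Here 1 transporter rose, the system A glutamine carrier Slc38a1, and 3 fell: the cystine/glutamate exchanger Slc7a11, the noradrenaline transporter Slc6a2 and Slc6a17, a vesicular carrier of neutral amino acids. That is 4 of 62, or 6.45%, against 3.20% of all probe sets tested (1.35% higher and 1.85% lower). The median change was 0.03 over the members, the same as over all probe sets, and -0.12 over the 31 above the low-signal limit, and the range was -2.28 to 0.99.

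Slc7a11, the light chain of system xc-, imports cystine for glutathione synthesis. The stromal vehicle arrays gave 9.61, 9.63 and 9.69, and the E2 arrays gave 7.81, 7.79 and 6.49. The vehicle arrays were almost identical, all E2 arrays were lower, and E2 replicate 3 was the lowest. The gene fell by 2.28 (SE 0.53, adjusted p = 0.0454), to a mean of 7.36, under the low-signal limit, so no fold is given. Its epithelial signals were 9.02, 8.66 and 8.35 under vehicle and 9.10, 9.28 and 7.05 under E2, so E2 replicate 3 was the low array in that layer also. The epithelial difference was -0.20 ± 0.53 (adjusted p = 0.916) and turned to 0.51 without that array. The stromal call was lost without any 1 of the 6 stromal arrays. Adjusted p was then 0.142, 0.121 and 0.146 without vehicle replicates 1, 2 and 3, and 0.092, 0.0962 and 0.164 without E2 replicates 1, 2 and 3. It was also lost without epithelial vehicle replicate 1 (0.0647) or 3 (0.0534) or epithelial E2 replicate 1 (0.0552), where the difference stayed at -2.28. The stromal difference without E2 replicate 3 was -1.84.

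Slc6a17 gave 10.35, 10.23 and 10.54 under vehicle and 8.98, 9.16 and 8.82 under E2 in the stroma, a gap of over 1 log2 unit between the groups. It fell by 1.39 (SE 0.19, 2.61-fold, adjusted p = 0.00251). In the epithelium it was 10.06, 9.71 and 10.40 against 9.46, 9.56 and 9.04. Those groups did not overlap, yet the difference of -0.70 ± 0.19 was not called (adjusted p = 0.0816).

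Slc6a2, which clears noradrenaline, gave 9.09, 8.07 and 8.37 under vehicle and 7.13, 7.04 and 6.93 under E2 in the stroma. It fell by 1.47 (SE 0.25, adjusted p = 0.00982) to a mean of 7.03 that was likewise under the limit. The stromal E2 arrays thereby came to the level of the epithelial arrays, which gave 6.65, 6.33 and 7.14 under vehicle and 6.92, 6.65 and 6.92 under E2. The epithelial difference was 0.12 ± 0.25 (adjusted p = 0.892). The stromal calls of Slc6a2 and Slc6a17 were the only ones of the 7 E2 calls that held without each of the 12 arrays in turn, with highest adjusted p of 0.0467 and 0.0164.

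Slc38a1 was the single transporter that rose. Its stromal signals were 11.05, 11.14 and 10.82 under vehicle and 11.78, 11.87 and 11.83 under E2, with no overlap. The rise was 0.82 (SE 0.18, 1.77-fold, adjusted p = 0.0342). A second probe set of the gene gave stromal means of 8.77 and 9.83, a difference of 1.06 ± 0.28 that missed the threshold (adjusted p = 0.0856). In the epithelium the main probe set gave 10.79, 11.13 and 10.83 against 11.21, 11.16 and 10.48, a difference of 0.03 ± 0.18. The stromal call was lost without any 1 of the 6 stromal arrays, with adjusted p of 0.105, 0.0607 and 0.144 without vehicle replicates 1, 2 and 3 and of 0.108, 0.131 and 0.107 without E2 replicates 1, 2 and 3. Slc38a1, Slc38a2 and Slc38a4 follow each other on chromosome 15. Slc38a2, the other main system A carrier, gave stromal signals of 11.88, 11.93 and 11.85 with vehicle and 11.93, 12.02 and 11.87 with E2, a difference of 0.05 ± 0.09, and Slc38a4 had low signal.

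The number of stromal calls was 2 without stromal vehicle replicate 1, 2 or 3 or without stromal E2 replicate 1 or 2, and 8 without both epithelial arrays that stood apart, which enter through the shared estimate of spread. Over all 23410 probe sets the fits with 2 calls had 378, 573, 401, 361 and 337, and the last had 1923. In the stromal E2 comparison limma called 0 of 15 stromal fibroblast markers (median -0.12) and 0 of 12 leukocyte markers (median -0.41), each with 4 at an unadjusted p under 0.05, and 2 of 7 smooth muscle markers as higher (median 0.28). The epithelial keratin Krt7 was higher by 1.32 ± 0.29 (adjusted p = 0.0335), as 1 of 14 epithelial markers called, and the endothelial cadherin Cdh5 lower at -1.50 ± 0.26 (0.0115), as 1 of 7. Their part in the results was not tested. The smooth muscle mean was 11.49 to 11.60 in the stromal vehicle arrays and 11.77 to 11.87 in the stromal E2 arrays.

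Other stromal differences missed the threshold. The taurine transporter Slc6a6 gave 12.23, 12.44 and 12.35 under vehicle and 12.95, 13.06 and 13.02 under E2, separate groups with a difference of 0.67 ± 0.16 (adjusted p = 0.0527). The betaine and GABA transporter Slc6a12 gave 7.63, 8.10 and 7.71 against 9.01, 9.34 and 8.07, overlapping groups with a difference of 0.99 ± 0.32 (adjusted p = 0.164). Both carry organic osmolytes. Slc7a5, the leucine-importing light chain LAT1, gave 11.67, 10.14 and 11.44 against 12.25, 12.21 and 11.27, a difference of 0.82 ± 0.36 (adjusted p = 0.39) with vehicle replicate 2 far below its group. Its heavy chain Slc3a2 gave 12.28, 12.22 and 12.29 against 12.37, 12.37 and 12.18, a difference of 0.04 ± 0.08. Slc6a12 was chosen after its values were seen.

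**Figure D2:**
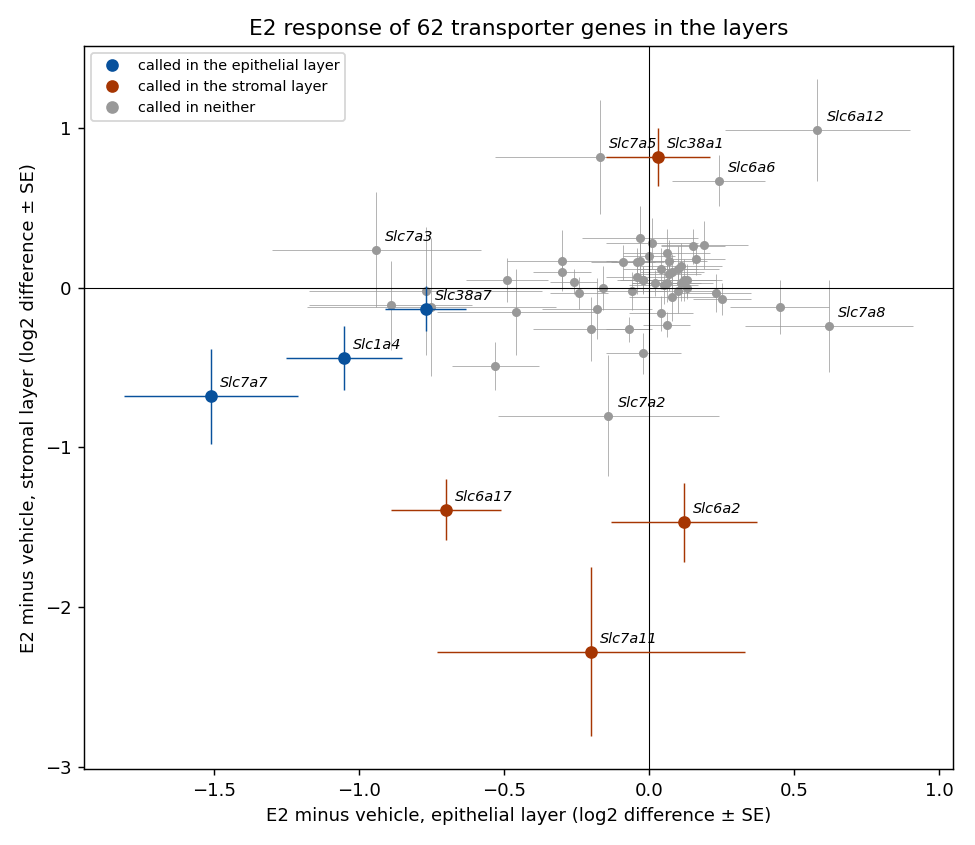
E2 minus vehicle in log2 units for the 62 transporters, with the epithelial layer on the horizontal axis, the stromal layer on the vertical axis and lines of ± SE. Most points lie near the origin; the 3 epithelial calls lie to the left, from -0.77 to -1.51, and 3 of the 4 stromal calls lie at the bottom, from -1.39 to -2.28.

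The third comparison tested whether the E2 response differed between the layers. It called 0 of 62 transporters, against 0.658% of all probe sets (0.466% higher and 0.192% lower). In limma 12 transporters had an unadjusted p under 0.05, and the share of all probe sets at that level was not counted. Slc6a2 came nearest, with an epithelial minus stromal response of 1.60 ± 0.36 (adjusted p = 0.0821). Its epithelial means, 6.71 under vehicle and 6.83 under E2, were under the low-signal limit. In this contrast all 14 epithelial markers were lower (median -0.99). All 15 stromal fibroblast and all 12 leukocyte markers were higher (medians 0.47 and 0.81). Limma called 0 in these 3 lists, but 1 of 7 smooth muscle and 1 of 5 mesothelial markers, both lower. Their part in the results was not tested. The differences in response were 2.08 ± 0.75 for Slc7a11 (adjusted p = 0.332), -0.79 ± 0.25 for Slc38a1 (0.257) and -0.64 ± 0.20 for Slc38a7 (0.219). With all 12 arrays no layer difference was called for any of the 7 genes called in an E2 comparison, but single arrays changed this. Without epithelial E2 replicate 3, the low epithelial array for Slc7a11, that gene's difference was called at 2.79 (adjusted p = 0.02), and without both arrays that stood apart at 2.78 (0.018). Slc6a2 was called at 1.81 without epithelial vehicle replicate 3 (0.0241) and at 1.60 with the dim probe sets filtered out (0.0494). The count of transporters called was 1 without epithelial vehicle replicate 3, 2 without epithelial E2 replicate 3 and 3 without both arrays that stood apart. Over all 23410 probe sets these fits called 575, 603 and 2031. With array weights 12 transporters were called, among them Slc6a2, Slc7a11, Slc38a1, Slc38a7 and Slc6a17, and 3867 of all probe sets.

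The fourth comparison set the epithelial against the stromal layer under vehicle. Of 62 transporters 10 were higher in the epithelium and 6 lower. These 16 are 25.8% of the members, where 20.4% of all probe sets were called. By direction, 6.92% of all probe sets were higher in the epithelium and 13.5% lower. The median difference was 0.11 over the members (-0.04 after quantile renormalization) and 0.02 over all probe sets. Replicate numbers were taken to pair the vehicle arrays of the layers, which the labels do not state. With that block on the 6 vehicle arrays 10 transporters were called, 5 in each direction, against 1996 of 23410 probe sets. Of these 10, 9 were among the 16. Slc1a4, Slc7a1, Slc6a14, Slc1a3, Slc43a2, Slc36a2 and Slc7a15 were then not called, with adjusted p of 0.0503 to 0.0972.

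The neutral and cationic carriers of the epithelium came first. Both ASCT exchangers were higher there. Slc1a5 (ASCT2), a main entry route for glutamine, gave 9.80, 10.42 and 10.56 in the epithelium and 9.09, 9.15 and 9.47 in the stroma, a difference of 1.02 ± 0.20 (adjusted p = 0.00509). Slc1a4 was 1.05 ± 0.20 higher (adjusted p = 0.00389).
Slc7a3, a cationic carrier of arginine and lysine, gave 9.20, 10.57 and 9.99 against 8.21, 8.21 and 8.19. The stromal arrays were nearly equal, and all epithelial arrays were higher, by 1.71 ± 0.36 or 3.28-fold (adjusted p = 0.0069). Slc7a1, the widespread arginine carrier CAT1, was 0.79 ± 0.14 higher (10.36, 10.93 and 10.46 against 9.72, 9.69 and 9.96; adjusted p = 0.00318). Slc6a14, a broad carrier of neutral and cationic amino acids, gave 6.69, 8.0 and 5.85 against 5.16, 5.13 and 5.14. It was called at 1.71 ± 0.40 (adjusted p = 0.0129), with low signal in every group and a wide epithelial spread.

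Slc43a3, which carries purine nucleobases, gave 10.63, 10.97 and 11.29 in the epithelium and 9.72, 9.31 and 9.61 in the stroma, 1.42 ± 0.19 or 2.68-fold higher (adjusted p = 0.00068). The glycine transporter Slc6a9 gave 10.55, 11.16 and 11.07 against 9.61, 9.43 and 10.00, 1.25 ± 0.20 higher (adjusted p = 0.00167). Slc38a2 gave 12.52, 12.63 and 12.65 against 11.88, 11.93 and 11.85, 0.71 ± 0.09 higher (adjusted p = 0.000453). None of these epithelial and stromal ranges overlapped.

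The largest difference of any transporter was on the stromal side. Slc7a8, the LAT2 light chain for neutral amino acids and thyroid hormone, gave 8.56, 8.0 and 8.54 in the epithelium and 11.14, 11.34 and 11.21 in the stroma. It was lower in the epithelium by 7.26-fold, at -2.86 ± 0.29 (adjusted p = 0.000123). Its heavy chain Slc3a2 gave 12.26, 12.39 and 12.31 against 12.28, 12.22 and 12.29, overlapping groups with a difference of 0.05 ± 0.08 (adjusted p = 0.66). Slc6a2 was lower in the epithelium at -1.80 ± 0.25 (adjusted p = 0.000773), with an epithelial mean of 6.71 under the low-signal limit. Slc6a6 gave 10.90, 11.11 and 11.20 against 12.23, 12.44 and 12.35, or -1.27 ± 0.16 (adjusted p = 0.000437).
Slc36a4, a carrier of proline and tryptophan, gave 8.76, 9.0 and 9.44 against 9.91, 10.01 and 10.06, or -0.92 ± 0.17 (adjusted p = 0.00331). These 4 genes, which were picked as called with a large difference, were higher in every stromal array than in any epithelial array. Of the other calls, Slc1a3 and Slc7a15 were higher in the epithelium and Slc43a2 and Slc36a2 lower, with sizes of 0.38 to 0.82. Of the 16, those of Slc36a2 (10 arrays) and Slc7a15 (6 arrays) could be lost by leaving out 1 array, with adjusted p up to 0.165 and 0.111, and the other 14 held.

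Of 15 stromal fibroblast markers limma called 9 lower in the epithelial arrays and 0 higher (median -1.0), and 11 had a lower mean. Of 7 smooth muscle markers 6 were called lower (median -1.04), and all 7 had a lower mean. Of 12 leukocyte markers 7 were called lower and 1 higher (median -1.16), and 10 had a lower mean. Of 14 epithelial markers 13 were called higher (median 4.08), and of 5 mesothelial markers 4 (median 2.94). All 14 and all 5 had a higher mean. Which cells in the inserts carried each transporter was not tested.

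**Figure D3:**
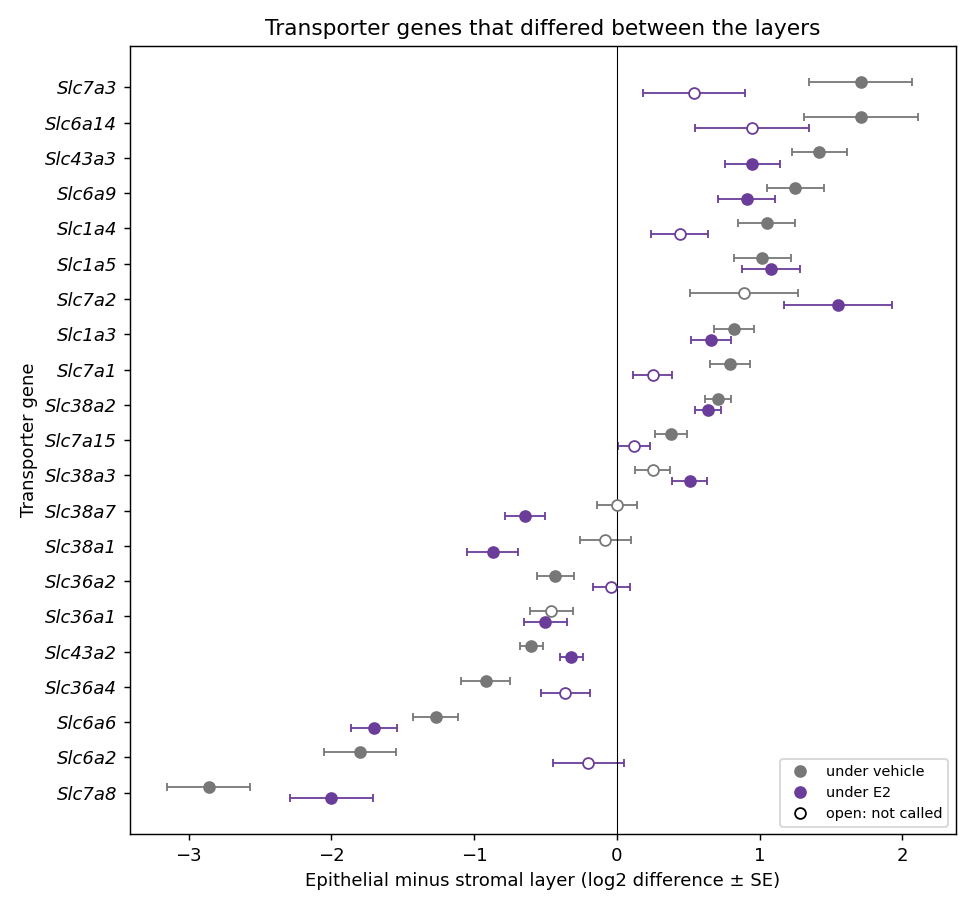
Epithelial minus stromal layer in log2 units (± SE) for the 21 transporters called in either layer comparison, under vehicle (grey) and under E2 (purple); open circles did not pass. The genes run from Slc7a3 and Slc6a14 at 1.71 under vehicle to Slc7a8 at -2.86.

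The fifth comparison set the layers against each other under E2. It called 13 transporters, 7 higher and 6 lower in the epithelium, which is 21.0% of the members against 12.7% of all probe sets (4.12% higher and 8.60% lower). The median difference was 0.06 over the members and 0.02 over all probe sets. It was -0.20 over the 31 members above the low-signal limit and -0.05 over the 62 after quantile renormalization, so its sign was not stable. The calls of both layer comparisons shared 8 genes, all in the same direction: Slc1a3, Slc1a5, Slc38a2, Slc43a3 and Slc6a9 higher and Slc43a2, Slc6a6 and Slc7a8 lower. These are 50% of the calls under vehicle and 61.5% of those under E2. Over all probe sets the shares were 42.2% and 67.9%.

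Slc6a6 had the smallest p, with 11.48, 11.56 and 10.88 in the epithelium against 12.95, 13.06 and 13.02 in the stroma. It was lower by 3.26-fold, at -1.70 ± 0.16 (adjusted p = 9.56e-05). Slc7a8 gave 9.44, 9.36 and 8.15 against stromal values between 10.86 and 11.08, or -2.0 ± 0.29 (adjusted p = 0.00123). Both pairs of groups were separate, and epithelial E2 replicate 3 was the lowest array each time.
Slc7a2, an arginine carrier, was called under E2 and not under vehicle. Its E2 arrays gave 8.59, 8.79 and 8.63 against 7.16, 7.13 and 7.06, 1.55 ± 0.38 higher (adjusted p = 0.0217). Under vehicle it gave 8.86, 7.80 and 9.76 against 8.04, 7.5 and 8.21, overlapping groups with a difference of 0.89 ± 0.38 (adjusted p = 0.133). Its call was lost without epithelial E2 replicate 2 (0.0691) or 3 (0.0551) or stromal E2 replicate 1, 2 or 3 (0.0628, 0.0688 and 0.0711).

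Of the 7 genes called in an E2 comparison, 4 were called in 1 of the layer comparisons, and Slc6a17, Slc7a7 and Slc7a11 in neither. Slc38a1 was -0.08 ± 0.18 under vehicle and -0.87 ± 0.18 under E2 (adjusted p = 0.774 and 0.00905). Slc38a7 was 0.00 ± 0.14 and -0.64 ± 0.14 (0.99 and 0.0118). Its call was lost without stromal E2 replicate 1 (0.0526) or 2 (0.0523). Conversely, Slc6a2 was -0.20 ± 0.25 under E2 (0.645) and Slc1a4 0.44 ± 0.20 (0.184). These shifts are the same quantities as the differences in E2 response given earlier, of which 0 were called with all arrays. Slc7a3 was 0.54 ± 0.36 under E2 (0.368), with 8.96, 8.79 and 9.19 against 8.88, 8.80 and 7.64. Slc6a9 was 0.91 ± 0.20 higher (0.0131) and 0.73 without stromal E2 replicate 3 (0.053). Slc36a1, Slc38a3 and Slc43a2 were also lost without some of the arrays, at adjusted p of up to 0.178, 0.0924 and 0.0849. The count of calls was 8 without stromal E2 replicate 2 and 20 without both epithelial arrays that stood apart. Over all 23410 probe sets these fits called 1778 and 4330.

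Beside the calls by role stand those over all probe sets, 25.5% in at least 1 comparison and 24.5% in a layer comparison. By role, the glutamate carriers of Slc1 had 5 measured members, of which 3 had low signal. The brightest, Slc1a1, gave 7.92, 9.02 and 6.92 in epithelial vehicle, 6.83, 7.43 and 7.35 in epithelial E2, 8.56, 8.33 and 9.28 in stromal vehicle and 8.65, 8.66 and 8.51 in stromal E2 arrays. It was called in no comparison, and the nearest was the layer difference under E2 at -1.40 ± 0.43 (adjusted p = 0.0597). The 2 heavy chains had 0 calls by limma in every comparison, though both had an unadjusted p under 0.05 in the epithelial E2 comparison. Slc3a1 had low signal, and Slc3a2 lay between 12.04 and 12.39 on all arrays. Of 10 light chains 5 had low signal, with Slc7a7, Slc7a11, Slc7a8 and Slc7a15 called somewhere. Of 5 cationic carriers 1 had low signal, and 3 were called, each between layers and higher in the epithelium. Of 11 Slc38 members 5 had low signal and 4 were called. The neurotransmitter and osmolyte branch of Slc6 had 10 measured members, 5 with low signal, of which Slc6a2, Slc6a6 and Slc6a9 were called. In the amino acid and orphan branch 9 of 10 had low signal, and the exception was Slc6a17. Of 4 Slc36 members 2 had low signal and 3 were called, all lower in the epithelium. The calls of Slc36a1 (under E2) and Slc36a2 (under vehicle, low signal) each held in 2 of the 12 fits without 1 array. All 3 Slc43 members were above the limit, and 2 were called.

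The opposite strand gene Slc7a6os gave 8.23, 8.41 and 8.21 against 7.96, 7.95 and 7.92 in the epithelium and 8.08, 8.28 and 8.12 against 7.66, 7.84 and 7.90 in the stroma. The E2 groups were lower without overlap in both layers, by differences of -0.34 ± 0.09 and -0.36 ± 0.09 that were not called (adjusted p = 0.0921 and 0.0748). Slc6a19os had low signal.

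**Figure D4:**
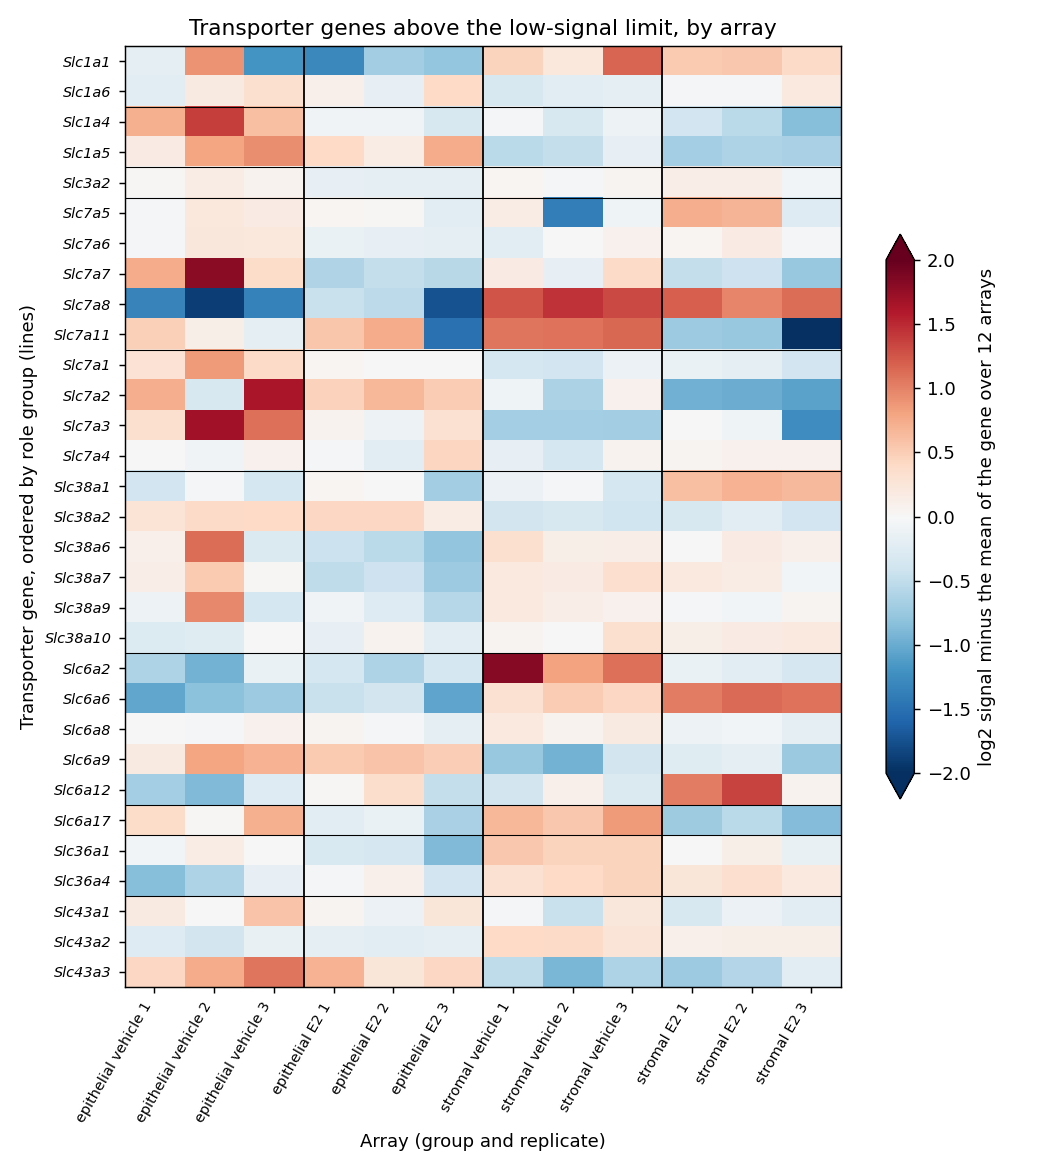
Log2 signal of the 31 transporters above the low-signal limit on each of the 12 arrays, as the difference from the gene's own mean over all arrays, ordered by role group. The colours are capped at 2 log2 units; Slc7a8 and Slc6a6 are red in the stromal columns, Slc43a3 and Slc38a2 in the epithelial ones, and Slc7a11 is darkest in stromal E2 replicate 3.

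Other genes that handle amino acids were read from 4 lists. The part of layer makeup in their differences was not tested, and these genes were not followed through the alternative fits. The starvation response list of ATF4, a factor that raises carriers and biosynthetic enzymes when amino acids run short, had 27 measured genes. In the epithelial E2 comparison limma called 0 of them (median -0.02, with 4 at an unadjusted p under 0.05). In the stromal one it called 2, both lower (median -0.08, with 6 at an unadjusted p under 0.05). These were Cth, which makes cysteine from cystathionine, at -1.12 ± 0.21 (adjusted p = 0.0151), and the mTORC1 inhibitor Ddit4 at -0.88 ± 0.16 (0.015). The asparagine synthetase Asns, named here although it was not called, differed by -0.01 ± 0.12 in the epithelium and 0.04 ± 0.12 in the stroma. Between the layers 3 were higher in the epithelium and 3 lower, both under vehicle and under E2. Cth was -1.88 ± 0.21 and -1.26 ± 0.21 and Nupr1, a stress-induced nuclear protein, -1.50 ± 0.19 and -1.84 ± 0.19, while Ddit4 was 0.70 ± 0.16 and 1.67 ± 0.16. The others were called once, with Eif4ebp1 (-0.44), Fgf21 (0.36) and Trib3 (0.31) under vehicle and Atf5 (-0.42), Mthfd2 (0.37) and Stc2 (0.64) under E2.

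The list of genes by which mTORC1 senses amino acids had 30 measured genes. E2 lowered Sesn3, a relative of the leucine sensor Sesn2, by 0.58 (SE 0.13, adjusted p = 0.0442) in the epithelium and 0.62 (SE 0.13, 0.0245) in the stroma. It was the 1 gene called in each. Between the layers under vehicle 11 were lower in the epithelium and 0 higher, with a median of -0.33. Among them were the Rag GTPases Rragd (-1.05 ± 0.14), Rragc (-0.69 ± 0.15) and Rraga (-0.50 ± 0.15) and the activating GTPase Rheb (-0.77 ± 0.13). The others were Fnip2 (-0.82), Lamtor3 (-0.68), Flcn (-0.57), Seh1l (-0.55), Depdc5 (-0.43), Nprl2 (-0.41) and Wdr24 (-0.33). Under E2 Rragd, Rragc and Rheb were lower, at -0.94 ± 0.14, -0.71 ± 0.15 and -0.46 ± 0.13.

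The glutathione list had 15 measured genes. Ggt5, an enzyme that cleaves extracellular glutathione, was 1.21 ± 0.22 higher after E2 in the epithelium (adjusted p = 0.0185). Cth was the 1 gene lower in the stroma. Under vehicle 8 genes were lower in the epithelium and 1, Ggct at 0.49 ± 0.10, higher. The lower ones were Cth, Ggt5 (-1.37 ± 0.22), Ggt7 (-0.72), the ligase subunit Gclm (-0.70), Chac2 (-0.59), Nfe2l2 (-0.47), Gss (-0.45) and Oplah (-0.38). Under E2 Cth and Ggt7 (-0.56) were lower and Ggct (0.36) higher.
Of 21 carriers of amino acids and peptides in other families, 1 was called in the epithelial E2 comparison. The mitochondrial aspartate/glutamate carrier Slc25a12 was 0.54 ± 0.12 higher after E2 (adjusted p = 0.0392). In the stroma limma called 0, with 1 at an unadjusted p under 0.05. Under vehicle the peptide transporter Slc15a1 was 2.62 ± 0.57 higher in the epithelium, whereas the lysosomal histidine and peptide carriers Slc15a3 (-2.60 ± 0.37) and Slc15a4 (-0.54 ± 0.13), the aromatic amino acid carrier Slc16a10 (-1.20 ± 0.14) and Slc25a12 (-0.77 ± 0.12) were lower. Under E2 Slc15a3 (-2.33), Slc16a10 (-0.72), Slc15a4 (-0.61) and Slc25a44 (-0.53) were lower.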

How the data were processed

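The deposited table held log2 signals of 35556 probe sets on 12 arrays, made by the authors with RMA per the submitters' processing notes, version and settings not given in the sources used here. Values ranged from 3.2 to 14.0, and no 2 arrays were identical. They were used as deposited. Symbols came from the platform annotation, and all 62 transporter symbols matched RefSeq (GRCm38.p6) by gene identifier.

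Differences were fitted with limma 3.58.1 in R 4.3.3 (lmFit and eBayes, two-sided, 4 group means, 8 residual and 2.62 prior degrees of freedom) on all probe sets, with Benjamini-Hochberg adjustment over the 23410 with a symbol. Each SE comes from the moderated fit and each SD from 3 arrays. The fit was tested on simulated data. Members, lists and tests were chosen with earlier results of these data known. Values per array are given for every member called in an E2 comparison, the 10 with the largest layer difference under vehicle among those called, and the brightest of each role group. Others were chosen after their values were seen.

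Deviations of arrays with the same replicate number were correlated to check pairing. Epithelial and stromal vehicle arrays gave r = 0.17, 0.14 and 0.13. Numbers were taken to pair them on that basis alone, as the labels do not state it. Vehicle and E2 arrays gave -0.42, 0.27 and 0.27 (epithelium) and 0.20, -0.04 and 0.03 (stroma), and the layers under E2 gave -0.31, 0.23 and -0.06. Alternatives changed the fit, normalization, filter, weights, block and arrays.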

Additional observations from a re-analysis of the deposited data

How the results depend on the processing

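The numbers of transporters called were 3, 4, 0, 16 and 13 for E2 in the epithelium, E2 in the stroma, the layer difference in response, the layers under vehicle and the layers under E2. Fits of only the 6 arrays of a layer gave 0 and 7 in the E2 comparisons. Over all 23410 probe sets with a symbol those fits called 29 and 1595. Array weights gave 12, 18, 12 and 37 for E2 in the epithelium and stroma, the difference in response and the layers under E2. With these weights 4260, 4180, 3867 and 11444 of all 23410 probe sets were called. Averaging epithelial E2 replicates 1 and 2 gave 0 in the epithelium, and a filter on dim probe sets gave 1 for the difference in response. These settings called 180 of 23410 and 230 of 12831 probe sets. Leaving out both epithelial arrays that stood apart, an alternative chosen after seeing the data like the fit on named probe sets and the block on 6 arrays, gave 7, 8, 3, 21 and 20 in the 5 comparisons. It called 2811, 1923, 2031, 10637 and 4330 of all 23410 probe sets. The replicate block on the 6 vehicle arrays gave 10, and on the 6 E2 arrays 14. These blocks called 1996 and 2116 of all 23410 probe sets. Replicate number as a fixed term, and co-culture as a random term, each gave 3, 4, 0, 17 and 13, so the block changed no E2 call. Of all 23410 probe sets the fixed term called 484, 753, 138, 4840 and 3063, and the random term 590, 755, 197, 5115 and 3254. Without each array in turn the counts of transporters ran from 0 to 6, 2 to 6, 0 to 2, 14 to 18 and 8 to 19. Over all 23410 probe sets they ran from 173 to 1482, 337 to 1175, 35 to 603, 3122 to 6658 and 1778 to 4309. Of 36 called transporter results 17 were called under every alternative run. Renormalization by quantiles turned the median layer differences to -0.04 and -0.05. The results that reversed were uncalled epithelial E2 differences: Slc6a2 (-0.08 with weights, -0.11 without both arrays, and -0.07 to 0.34 without 1 array), Slc7a11 (0.41, 0.50, and -0.60 to 0.51) and Slc38a1 (-0.0027 as the mean of both probe sets, -0.09 with E2 replicates averaged, and -0.10 to 0.27 without 1 array). The cause was not tested. The number of 3 arrays a group limits the precision, and the median SD over probe sets was 0.185 and 0.158 in the epithelial groups (vehicle and E2) and 0.0946 and 0.0804 in the stromal ones, which the fit pools. Nominal p-values under 0.05 numbered 13, 15, 12, 21 and 22.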
